A study of Homo sapiens with 4 samples.

Results

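The peaks described here are those that MIR205HG/LEADR ChIRP-seq gave on human chromosome 19. They were chosen by position alone, as every peak that the 3 deposited peak lists place on chromosome 19, and no measured value entered the choice. There were 988 such peaks among 28639 in all. Replicate 1 gave 8 of its 734 peaks, replicate 2 gave 379 of 10794 and replicate 3 gave 601 of 17111. RWPE-1 cells are normal prostate epithelium made immortal in culture, and ChIRP (chromatin isolation by RNA purification) pulls down an RNA with biotinylated antisense probes, together with the chromatin crosslinked to it. Untreated RWPE-1 cells were used with a MIR205HG pool of probes in 3 replicates and with a LacZ pool in 1 control library, whose own peak list was not used here. The replicates were independent experiments per the methods, and the authors called the peaks of each against that same control library, so the errors of the 3 lists are not independent. All values come from 1 cell line, and no second condition was compared.

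MIR205HG is the host gene of miR-205 and also gives rise to a long noncoding RNA, LEADR, that is found on chromatin. Its transcript carries part of an Alu element, a short interspersed repeat that is common in gene-rich DNA. Chromosome 19 is the most gene-dense human autosome. It is known for long clusters of KRAB zinc finger genes, whose proteins bind DNA and mostly silence retrotransposons, and for families of kallikreins, immunoglobulin-like receptors and cytochromes that arose by tandem duplication. In the annotation used here it held 1480 protein-coding genes on 55.8 Mb of sequenced bases (26.5 per Mb). Its GC content was 48.4%, and 13.1% of its bases aligned with the Alu element carried by MIR205HG, against 5.195% on the other 21 autosomes. It ranked 1 of the 22 autosomes in each of these 3 measures. Alu bases and Alu share below mean bases in these alignments, and not all Alu sequence. With a looser alignment limit the shares were 16.4% on chromosome 19 and 6.52% on the other autosomes.

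Before the counts, the sequences at 3 of these sites are shown, as examples and not as a sample of the highest sites. The MIR205HG transcript has 1007 bases, of which a stretch of 212 that begins at base 180 comes from an Alu element and is called the Alu part below. The first line is the summit of the region with the highest fold enrichment on chromosome 19, inside MYO9B, where capitals mark exact matches to bases 12 to 26 of the transcript, which lie outside the Alu part. The other lines have no base in an alignment with the Alu part that passed the limit used (e-value 1e-05). They are ZNF98, second to MYO9B in mean fold enrichment, and a summit in VSIG10L that all 3 replicates share. The 3 regions that rank next after ZNF98 do carry Alu sequence: the 200 bases around the summits in ETFB, near MYPOP and near THEG, not printed here, hold 58, 103 and 56 aligned bases. After them the picture is mixed, with 0 at ENSG00000284797, 0 in ZNF675, 108 in PEX11G and 0 in SIN3B.
MYO9B, all 3 replicates, hg19 chr19:17319701-17319900, plus strand: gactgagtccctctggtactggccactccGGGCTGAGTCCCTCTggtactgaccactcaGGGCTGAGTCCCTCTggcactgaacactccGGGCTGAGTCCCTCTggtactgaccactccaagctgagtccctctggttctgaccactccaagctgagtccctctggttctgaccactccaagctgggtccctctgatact
ZNF98, hg19 chr19:22685840-22686039, plus strand: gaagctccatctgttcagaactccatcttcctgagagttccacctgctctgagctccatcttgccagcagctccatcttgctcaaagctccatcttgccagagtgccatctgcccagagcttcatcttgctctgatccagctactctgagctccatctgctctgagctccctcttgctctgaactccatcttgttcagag
VSIG10L intron, all 3 replicates, hg19 chr19:51837267-51837466, plus strand: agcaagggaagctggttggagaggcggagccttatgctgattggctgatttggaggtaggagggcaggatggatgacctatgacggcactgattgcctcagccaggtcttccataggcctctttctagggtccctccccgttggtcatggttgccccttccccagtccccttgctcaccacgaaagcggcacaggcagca

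Peaks were dense on chromosome 19 per Mb in replicates 2 and 3, but sparse per gene in each replicate. Replicate 1 had 0.143 peaks per sequenced Mb of chromosome 19, against 0.269 on the other autosomes. Replicate 2 had 6.79 against 3.91, and replicate 3 had 10.8 against 6.18. The ratio was thus 0.533 in replicate 1 (95% interval 0.229 to 1.06), 1.74 in replicate 2 (1.56 to 1.93) and 1.74 in replicate 3 (1.60 to 1.89). Intervals in the text are exact Clopper-Pearson intervals that cover counting error only. They treat peaks as independent of each other, although some lay close together, and are too narrow to that extent. Replicate 1 went the other way from replicates 2 and 3, on 8 peaks. Over the 3 replicates the mean log2 ratio was 0.23 ± 0.99 (SD, n = 3; two-sided exact sign-flip permutation p = 1), a mean smaller than the spread. Without replicate 1 the mean was 0.80. With 3 replicates this permutation test cannot give a p below 0.25, so it cannot pass a threshold of 0.05 in any comparison made here.

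Among the 22 autosomes, chromosome 19 ranked 21 by peaks per Mb in replicate 1 and 2 in replicates 2 and 3. Chromosome 20 ranked 1 in each replicate, with 0.571, 8.82 and 14.3 peaks per Mb, although it had 9.19 genes per Mb. Chromosome 17, second in gene density with 15.3 genes per Mb, had 0.206, 5.81 and 8.95 peaks per Mb. Chromosome 22, second in GC content, had 0.0573, 3.41 and 6.10. The order of the autosomes by genes was therefore not their order by peaks. Per 100 protein-coding genes, chromosome 19 had 0.541, 25.6 and 40.6 peaks in replicates 1, 2 and 3, where the other autosomes had 3.98, 57.9 and 91.5. By that measure it ranked 21, 22 and 22. The mean log2 ratio per gene was -1.74 ± 0.99 (SD, n = 3; exact sign-flip permutation p = 0.25), below 0 in 3 of 3 replicates. Per Mb of Alu alignment the ratios to the other autosomes were 0.212, 0.692 and 0.694, so the direction per Mb also turned when counted on Alu bases in replicates 2 and 3. The part of aligned Alu bases or gene content in the density per Mb was not tested.

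**Figure D1:**
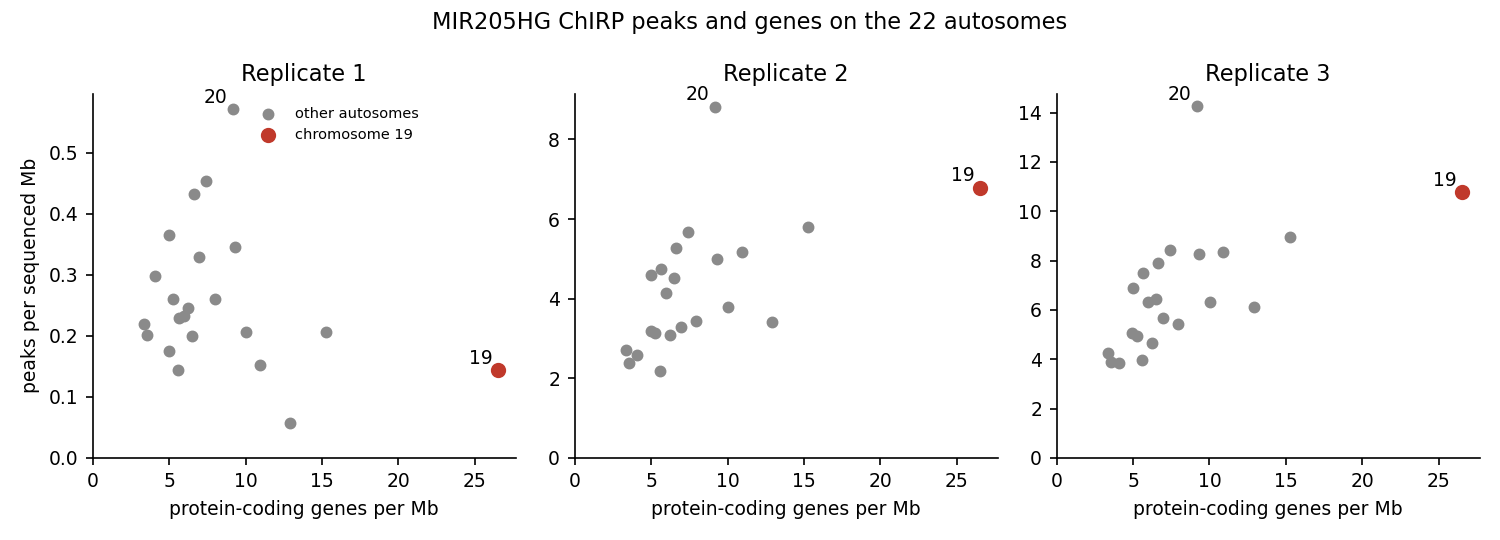
Peaks per sequenced Mb (vertical axis) against protein-coding genes per Mb (horizontal axis) for the 22 autosomes, 1 point each, in 3 panels for the 3 replicates, with chromosome 19 in red. Chromosome 19 lies far to the right at 26.5 genes per Mb. Its density is below that of most autosomes in replicate 1 and below that of chromosome 20 alone in replicates 2 and 3.

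Along the chromosome the peaks were spread widely but unevenly. Of the 60 windows of 1 Mb, 56 had at least 50% of their bases sequenced and were kept, and 4 were left out. In replicate 1 the 8 peaks fell in 7 windows and left 49 empty. In replicate 2 a window held 0 to 21 peaks (median 6.5), with 4 windows empty, and in replicate 3 it held 0 to 27 (median 10), with 2 empty. Peaks that overlapped between replicates by at least 1 bp were merged into 673 regions, and those with peaks of at least 2 replicates, 267 in number, are called shared regions. A window held 0 to 15 shared regions (median 4.5), and the 10 densest windows held 38.6% of them. Windows rich in replicate 2 peaks were rich in replicate 3 peaks as well (Pearson r = 0.81, Spearman rho = 0.77 over 56 windows). These 2 lists share the control library and the sequence of each window, and the correlation is a description.

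The window from 16 to 17 Mb was the densest, with 21 peaks in replicate 2, 27 in replicate 3 and 15 shared regions on 23 protein-coding genes. A shared region there reached the proximal region (1500 bp before to 500 bp past a transcript start) of SIN3B, a scaffold of histone deacetylase corepressor complexes. The window from 46 to 47 Mb followed with 13 shared regions, which reached proximal regions of HIF3A, a hypoxia-inducible factor subunit, of QPCTL, a glutaminyl cyclase of the Golgi, and of SNRPD2, a core spliceosome protein. The window from 39 to 40 Mb held 11, with GMFG, a regulator of actin branching, and RYR1, the calcium release channel of skeletal muscle. Windows from 2 to 3 Mb and from 54 to 55 Mb held 10 each, the first with the serine protease gene TMPRSS9 and with ZNF554, the second with no proximal region of a protein-coding gene. For HIF3A, QPCTL, GMFG, RYR1 and TMPRSS9 the proximal region was that of an internal transcript. Their summits lay 21541, 3956, 4644, 93617 and 28565 bp downstream of the gene start, in that order. At the other end, 7 windows held no shared region. They include the window from 55 to 56 Mb, singled out after its values were seen, with 48 protein-coding genes, 0 peaks in replicate 2 and 11 in replicate 3. Gene number and shared regions thus went together only loosely over the 56 windows (r = 0.22, rho = 0.28), while GC content (r = 0.42, rho = 0.48) and the share of Alu alignment (r = 0.32, rho = 0.34) gave higher values. The windows' gene number, GC content and Alu share are themselves correlated, so these are descriptions.

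**Figure D2:**
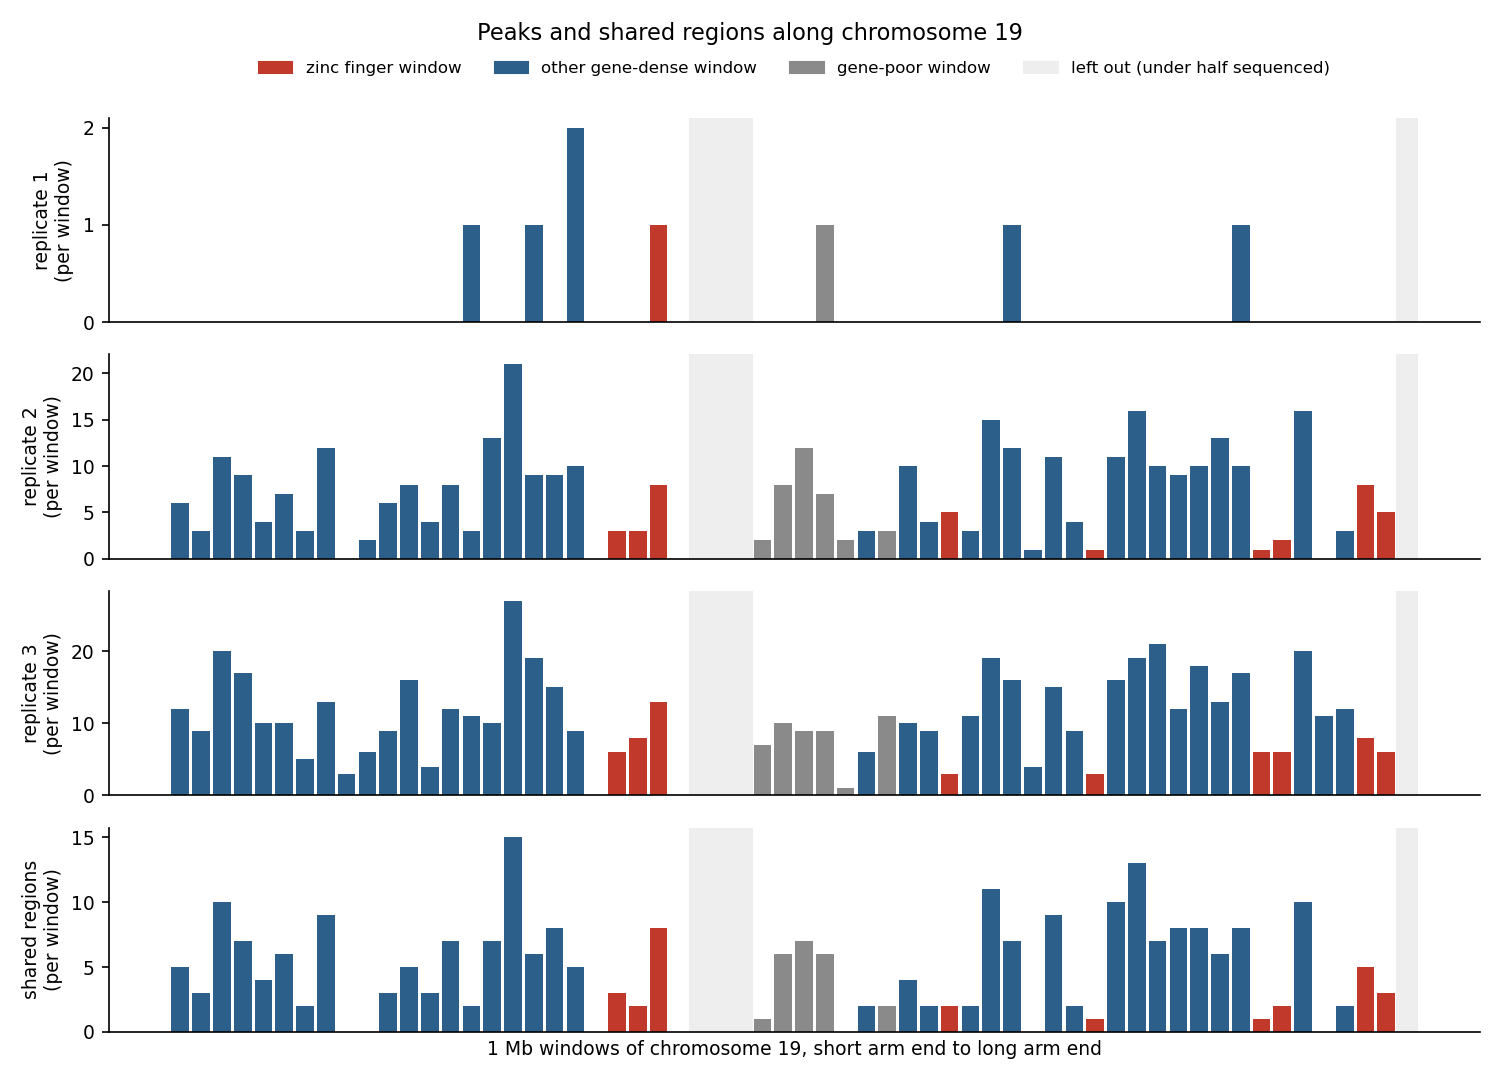
Number of peaks per 1 Mb window of chromosome 19 (vertical axes) in replicates 1, 2 and 3 and, in the lowest panel, number of shared regions. Windows stand in order along the chromosome and are coloured by class, and the pale band marks windows left out. The highest bar in replicates 2 and 3 and among shared regions is the same other gene-dense window, with 21, 27 and 15.

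Zinc finger gene clusters carried fewer peaks per Mb than other gene-dense parts of the chromosome in replicates 2 and 3. A zinc finger window was defined as one with at least 5 zinc finger genes that made up at least 50% of its protein-coding genes, which gave 10 windows with 165 zinc finger genes among 223 protein-coding genes. Another 39 windows held at least 15 protein-coding genes and are called other gene-dense windows, with 1228 genes. These also hold 92 zinc finger genes, and 4 of the zinc finger windows, from 20 to 24 Mb, have only 7 to 10 protein-coding genes and would not count as gene-dense by that number. The remaining 7 were gene-poor, with 23 genes. Zinc finger windows held 1, 36 and 59 peaks in replicates 1, 2 and 3, and other gene-dense windows held 6, 309 and 495. Per Mb this was 0.101 against 0.154 in replicate 1, 3.62 against 7.96 in replicate 2 and 5.93 against 12.7 in replicate 3. The ratio was 0.651 in replicate 1 (95% interval 0.0141 to 5.36), 0.455 in replicate 2 (0.313 to 0.644) and 0.465 in replicate 3 (0.349 to 0.610). The mean log2 ratio was -0.95 ± 0.29 (SD, n = 3; two-sided exact sign-flip permutation p = 0.25, the smallest that 3 replicates allow). The direction was the same in 3 of 3 replicates and the mean was larger than the spread between them.

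Single windows of both classes overlapped in range. In replicate 2 a zinc finger window held 0 to 8 peaks (median 3) and another gene-dense window 0 to 21 (median 9). In replicate 3 the ranges were 0 to 13 (median 6) and 3 to 27 (median 12). Shared regions numbered 27 in zinc finger windows (2.71 per Mb) and 218 in other gene-dense windows (5.61 per Mb). Among zinc finger windows the one from 23 to 24 Mb, which contains ZNF91, held most, with 8 shared regions, whereas the one from 20 to 21 Mb held no peak in any replicate. The 2 classes also differed in base content. Zinc finger windows had a GC content of 43.0% and 10.0% Alu alignment, against 50.5% and 15.2% in other gene-dense windows. Counted per Mb of Alu alignment, the ratio moved to 0.990 in replicate 1 (0.0215 to 8.16), 0.692 in replicate 2 (0.476 to 0.979) and 0.708 in replicate 3 (0.531 to 0.929). The mean log2 ratio moved to -0.35 (exact sign-flip permutation p = 0.25).

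Zinc finger clusters were also drawn as runs of at least 5 zinc finger genes less than 250 kb apart, which gave 12 clusters with 244 genes on 13.2 Mb. They held 3 of the 8 peaks of replicate 1, so that replicate 1 had 0.227 peaks per Mb in clusters and 0.117 in the rest of the chromosome. Replicate 2 had 3.55 in clusters against 7.80 outside, and replicate 3 had 5.89 against 12.3. With clusters drawn this way, the lower density therefore stood in replicates 2 and 3 and not in replicate 1. Gene-poor windows had 0.151, 5.13 and 7.09 peaks per Mb in replicates 1, 2 and 3, and their ratio to other gene-dense windows was 0.976, 0.644 (0.438 to 0.920) and 0.556 (0.403 to 0.751). Per Mb of Alu alignment that ratio was 2.73 (0.0593 to 22.5, on 1 peak in gene-poor windows), 1.801 (1.23 to 2.57) and 1.55 (1.13 to 2.10). The gene-poor windows, with 5.45% Alu alignment, thus went from lower to higher when Alu bases were the measure. In replicate 1 the interval spans 1. Compared with the 302 other gene-dense windows of the other autosomes, those of chromosome 19 had a density ratio of 0.734 in replicate 1 (0.260 to 1.69), 1.29 in replicate 2 (1.14 to 1.46) and 1.26 in replicate 3 (1.14 to 1.38). The mean log2 ratio was 0.08 ± 0.46 (SD, n = 3; exact sign-flip permutation p = 1). Per Mb of Alu alignment these ratios were 0.466 (0.165 to 1.07), 0.819 (0.724 to 0.925) and 0.799 (0.725 to 0.879). Each was below 1, but the interval of replicate 1 spans 1.

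**Figure D3:**
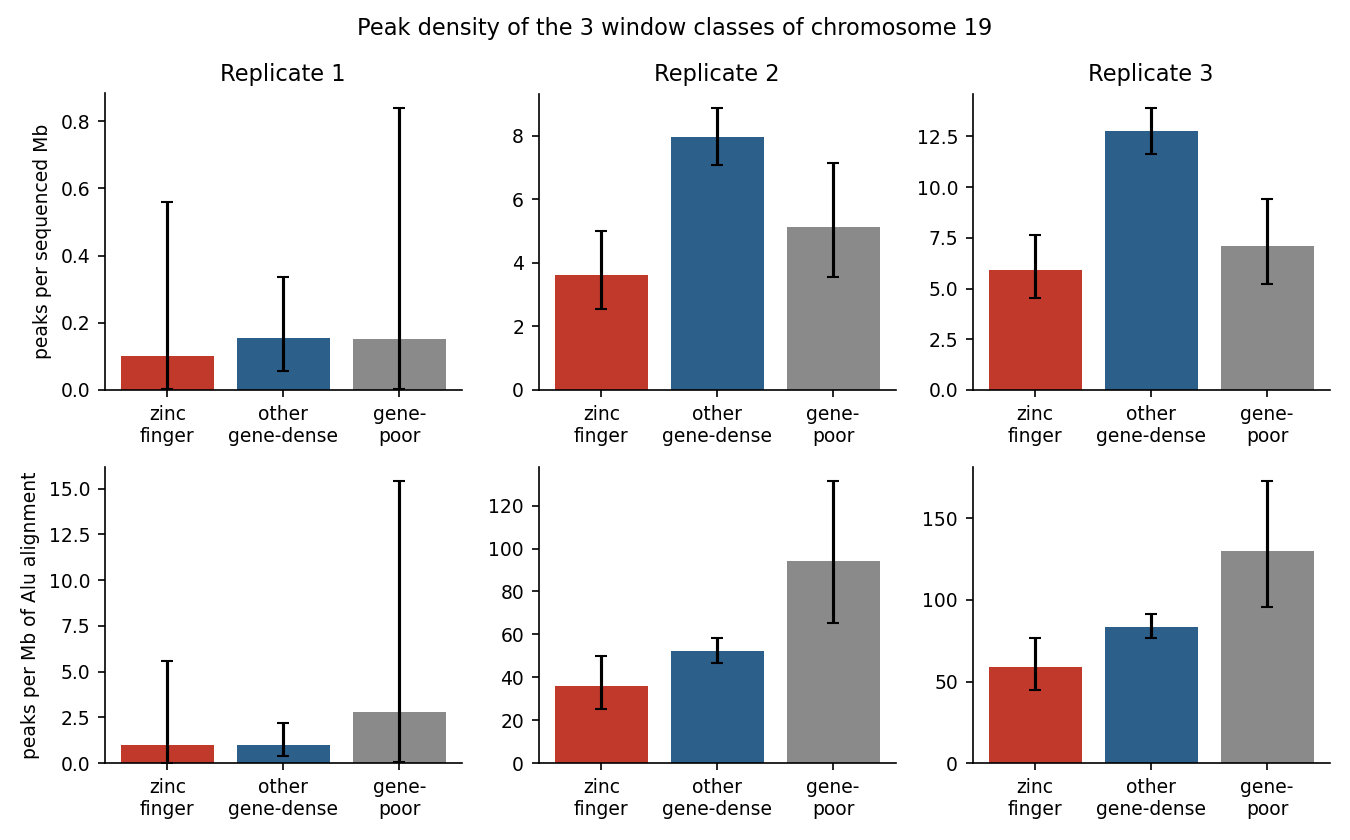
Peak density of the zinc finger, other gene-dense and gene-poor windows of chromosome 19, per sequenced Mb (upper row) and per Mb of Alu alignment (lower row), in 3 columns for the 3 replicates. Bars are peaks summed over the windows of a class, and error bars are 95% Poisson intervals of the count. The intervals cover counting error only and treat peaks as independent. Zinc finger windows are below other gene-dense windows in replicates 2 and 3, with a smaller gap in the lower row.

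By gene, 13 of the 261 zinc finger genes on chromosome 19 (4.98%, 95% interval 2.68 to 8.37) had a shared region in the gene or its proximal region. Of the 1480 protein-coding genes of the chromosome the share was 7.57% (112 genes), and of the 19229 protein-coding genes of all autosomes it was 12.4%. Among the 1219 protein-coding genes that are not zinc finger genes it was 8.12% (99 genes, 6.65 to 9.80). The share was lower in zinc finger genes, with intervals that overlap, although they were longer, with a median of 25199 bp against 13780 bp. The ones that did carry a shared region included some of the highest values of the chromosome. ZNF98, a KRAB zinc finger gene, held the second highest region, which lies in an intron and at a processed pseudogene, with a fold enrichment over the lacZ background of 9.45 in replicate 2 and 26.4 in replicate 3. ZNF675, a KRAB zinc finger gene also linked to TRAF6 signalling, had 11.3 and 18.1. ZNF91, whose protein represses SVA retrotransposons, and ZNF506 are described with the regions of all 3 replicates. The other 9 were ZNF554, ZNF536, ZNF613, ZNF568, ZSCAN5A, ZNF814, ZNF44, ZNF888 and ZNF8, with mean fold enrichments of their highest region between 5.43 and 10.1. Over shared regions the median mean fold enrichment was 7.07 in zinc finger windows and 6.95 in other gene-dense windows.

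The other gene families of chromosome 19 had few shared regions. Of the 15 kallikreins, serine proteases that include the prostate-specific antigen KLK3, none had a shared region, and single peaks of replicate 3 lay in KLK1 and KLK5. None was found in the 10 pregnancy-specific glycoproteins (PSG7 had a peak in replicate 3), the 13 SIGLEC genes, the 12 LILR and LAIR genes, the 7 KIR genes (KIR2DL4 and KIR3DL1 had peaks in replicate 3), the 6 CYP2 genes, the 20 olfactory receptors, the 6 galectins and the 45 microRNAs of the C19MC cluster. Of the 6 CYP4F genes, fatty acid hydroxylases, 2 had a shared region, namely CYP4F11 (fold enrichment 6.60 in replicate 2 and 9.46 in replicate 3) and CYP4F22 (5.57 and 7.31). CYP4F12 had peaks in replicates 2 and 3 that did not overlap each other. Of the 12 CEACAM genes 1, CEACAM4, a granulocyte membrane protein, had a shared region. Against the background of 7.57% of genes, these counts are small in either direction: a count of 0 of 15 genes allows a share of up to 21.8% (exact 95% interval), so a lower share in these families was not detectable at this size. That background is for protein-coding genes, with a median length of 15899 bp, and length was not taken into account. Kallikreins (7127 bp), olfactory receptors (8533 bp) and the microRNAs (87 bp) were among the shorter families. PSG (18148.5 bp), CEACAM (21541 bp) and CYP4F genes (22215 bp) were longer.

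Sharing between the replicates was close to that of the autosomes as a whole, apart from replicate 1. Each of the 8 replicate 1 peaks was overlapped by a peak of replicates 2 and 3, where 98.7% of replicate 1 peaks over all autosomes were overlapped by a peak of another replicate. In replicate 2, 299 of 379 peaks were overlapped (78.9%, 74.4 to 82.9), against 80.6% over all autosomes. In replicate 3, 275 of 601 were overlapped (45.8%, 41.7 to 49.8), against 47.9%. The share of replicate 2 peaks overlapped by replicate 1 was 1.85% (0.746 to 3.77) on chromosome 19 and 6.30% (5.84 to 6.79) on the other autosomes. For replicate 3 it was 1.16% (0.470 to 2.38) and 4.04% (3.74 to 4.35). Of the 673 merged regions, 7 had peaks of all 3 replicates, 260 of replicates 2 and 3, 80 of replicate 2 alone and 326 of replicate 3 alone, and no region had a peak of replicate 1 without both others. Overlapped peaks had higher fold enrichment than the rest, with medians of 6.09 and 4.80 in replicate 2 and of 7.55 and 5.94 in replicate 3.

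In the 267 shared regions fold enrichment was higher in replicate 3 than in replicate 2 in 205, with a median ratio of 1.24. On the other autosomes the median ratio was 1.25. The log2 values of the 2 replicates went together across regions (r = 0.73), which is a description across regions of 1 pair of libraries. Among peaks, the highest of replicate 1 was in VSIG10L (10.3), followed by MYO9B (7.78) and an intergenic site (7.196). In replicate 2 the highest were MYO9B (25.4), ETFB (14.6), which encodes the beta subunit of the electron transfer flavoprotein, and an intronic site of LINC00906 (13.97). In replicate 3 they were MYO9B (57.7), ZNF98 (26.4) and VSIG10L (22.1).

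**Figure D4:**
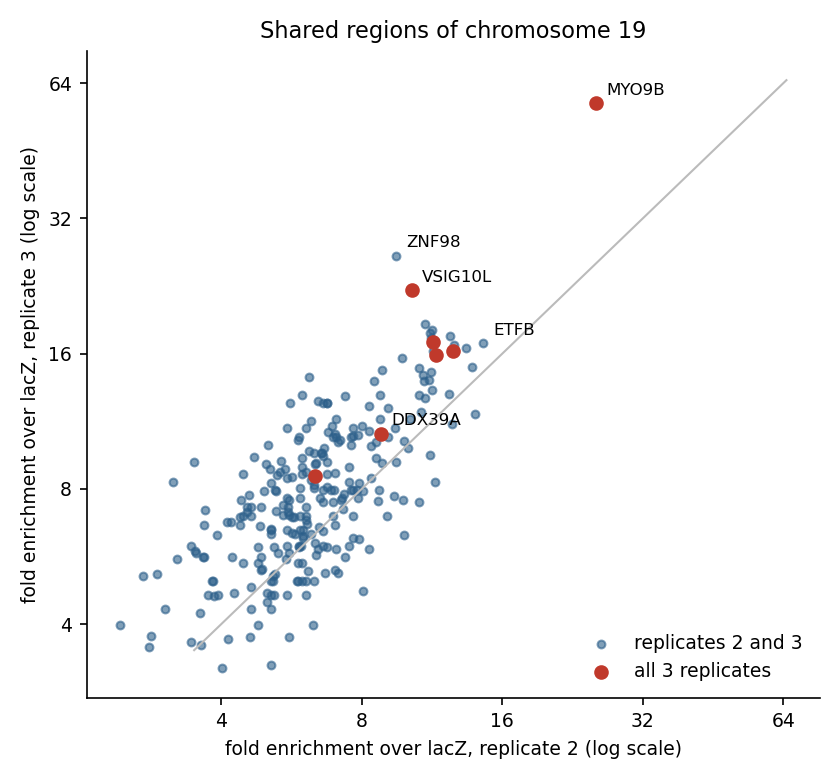
Fold enrichment over the lacZ background at the summit in replicate 2 (horizontal axis, log scale) and replicate 3 (vertical axis, log scale) for the 267 shared regions of chromosome 19, 1 point each. Red points are the 7 regions found in all 3 replicates, and the grey line marks equal values. Most points (205) lie above the line, and MYO9B stands apart at 25.4 and 57.7.

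The 7 regions found in all 3 replicates were spread over the window classes, with 1 in a zinc finger window, 1 in a gene-poor window and the others in other gene-dense windows. In VSIG10L, which encodes an immunoglobulin-domain membrane protein, an intronic region (chr19:51837175-51838320, hg19) had fold enrichments of 10.3, 10.2 and 22.1 in replicates 1, 2 and 3. An intergenic region (chr19:31502515-31503334) in a gene-poor window had 7.196, 12.6 and 16.2, with the start of the nearest protein-coding gene, TSHZ3, 337651 bp away. The proximal region of ZNF91 (chr19:23578598-23580376), 1434 bp upstream of the gene start, had 6.50, 11.4 and 17.0. In these 3 regions replicate 3 was the highest replicate. An intron of ZNF506 (chr19:19924265-19925257), another KRAB zinc finger gene, had 6.50, 11.5 and 15.9. These are the highest values per replicate and not from the same site, with summits at 19925107, 19925026 and 19924452. Another replicate 1 peak there had its summit at 19924494, with 5.21. The proximal region of DDX39A (chr19:14530606-14531037), an RNA helicase of mRNA export, had 6.67, 8.79 and 10.6, with its summit 615 bp upstream of the gene start. The lowest of the 7 was intergenic (chr19:40060956-40063242), 31170 bp upstream of EID2, with 5.66, 6.35 and 8.57. Its summits also lay apart, at 40061971, 40061462 and 40062074. Replicate 3 was thus the highest in each of these regions, and in VSIG10L replicates 1 and 2 were nearly level.

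The region in MYO9B (chr19:17317471-17322656, hg19) stood apart from the other shared regions in replicates 2 and 3, but not in replicate 1. MYO9B encodes an unconventional myosin, a motor that moves on actin. The fold enrichment was 7.78 in replicate 1, 25.4 in replicate 2 and 57.7 in replicate 3, from 21, 77 and 127 reads at the summit as solved from the deposited values. In replicate 3 it ranked 1 among the 16837 autosomal peaks by fold enrichment, with a −log10 p-value of 203.5. It ranked 14 of 10649 in replicate 2 and 450 of 715 in replicate 1. Its 7.78 in replicate 1 was below the median of 8.68 on the other autosomes. Its peak of 5186 bp in replicate 3 was also the widest on chromosome 19. The summit lay 133214 bp downstream of the start of the gene, in the proximal region of an internal transcript start of MYO9B and of a lncRNA, ENSG00000269480, on the opposite strand.

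The sequence at this summit, printed above, is a tandem repeat. Within 150 bp on either side of it, 84.9% of bases were the same as the base 30 bp further on. Bases 12 to 26 of the MIR205HG transcript, GGGCTGAGTCCCTCT, occur there 3 times in full, 30 bp apart, on the plus strand, and bases 14 to 26 occur 3 more times, so that the 6 matches span 226 bp. The same 15 bases occur 16 times in the 22 autosomes, on either strand, and 3 of those 16 are the ones in this region. The part of the repeat or of these matches in the enrichment was not tested, and the sequences of the ChIRP probes were not analysed here.

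Promoters took about the same share of the shared regions of chromosome 19 as of its bases, and a larger share than of the bases on the other autosomes. A summit counted as promoter if any transcript began at most 1500 bp downstream or 500 bp upstream of it, and otherwise exon, intron or intergenic in that order. Of the 267 shared regions 45 were in promoters (16.9%, 12.6 to 21.9), where promoters made up 18.99% of sequenced bases of the chromosome. On the other autosomes 9.39% of 7661 shared regions were in promoters (8.74 to 10.1), against 7.48% of bases. The ratio of the share of regions to the share of bases was thus 0.888 on chromosome 19 and 1.25 elsewhere. In replicate 2 this ratio was 0.834 on chromosome 19 and 1.26 elsewhere, and in replicate 3 it was 0.938 and 1.304. Replicate 1, with 3 of 8 peaks in promoters, had 1.97 against 0.851. The difference in this ratio went the other way in replicate 1, and over the 3 replicates it was 0.110 ± 0.879 (SD, n = 3; two-sided exact sign-flip permutation p = 1). As a plain share, promoters were higher on chromosome 19 by 31.1, 6.40 and 8.05 percentage points in replicates 1, 2 and 3 (permutation p = 0.25, exact).

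Introns took 129 of the 267 shared regions (48.3%, 42.2 to 54.5), close to their 47.5% of sequenced bases, and 54.3% elsewhere, close to 53.3% of bases. The share of peaks in introns was different on chromosome 19 from the other autosomes by -16.7, -3.45 and -4.41 percentage points in replicates 1, 2 and 3 (exact sign-flip permutation p = 0.25), and relative to bases the difference was -0.227, 0.0517 and 0.0310 (permutation p = 1, exact). Exons held 14 shared regions (5.24%, 2.90 to 8.64), against 8.12% of bases, and intergenic sequence held 79 (29.6%, 24.2 to 35.5), against 25.4%. By window class, 22.2% of the 27 shared regions of zinc finger windows were in promoters, 17.9% of the 218 of other gene-dense windows and 0 of the 22 of gene-poor windows. Introns held 33.3%, 50.5% and 45.5% of them, in the same order. The 406 regions of a single replicate had nearly the same share in promoters (17.5%, 13.9 to 21.5) as the shared regions.

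**Figure D5:**
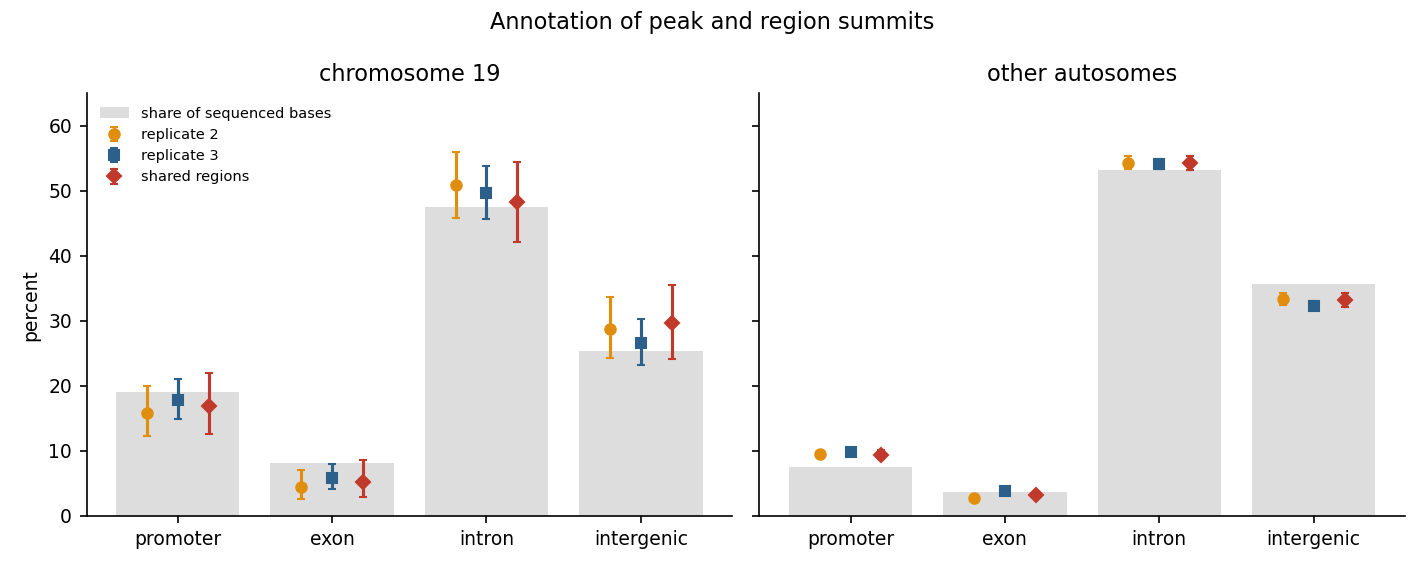
Percent of peak summits of replicates 2 and 3 and of shared regions (points, with exact 95% intervals) in promoter, exon, intron and intergenic sequence, beside the percent of sequenced bases in each class (grey bars), for chromosome 19 (left) and the other autosomes (right). On chromosome 19 promoters make up 18.99% of bases and 16.9% of shared regions, and on the other autosomes 7.48% and 9.39%.

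Of the protein-coding genes whose proximal region was touched by a shared region, MYO9B had the highest mean fold enrichment (30.3). The Ensembl genes ENSG00000284797 and ENSG00000285188, which have no symbol in the annotation and share a region, followed with 10.9 in replicate 2 and 18.6 in replicate 3. A region in an intron of QPCTL that reached the proximal region of SNRPD2 had 11.3 and 17.3, and a second one that reached the proximal region of a transcript of QPCTL itself had 10.6 and 14.9. At ZNF91 the values are those given above. For PEX11G, a peroxisomal membrane protein, they were 9.11 and 12.1, and for ZNF554 they were 8.75 and 11.5, with the summit 446 bp upstream of the gene start. TSPAN16, a tetraspanin, had 10.1 and 9.86, and was the member of this list with no higher value in replicate 3. ZNF613 had 6.60 and 12.5. In MYO9B, QPCTL, PEX11G, TSPAN16 and ZNF613 the proximal region was that of an internal transcript, with the summit between 3956 and 133214 bp downstream of the first base of the gene.

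Alu alignments were common in the shared regions of chromosome 19. Of the 267, 148 held an alignment of at least 100 bp with that Alu part (55.4%, 49.2 to 61.5), against 40.7% (39.6 to 41.8) on the other autosomes. Of the 73891 alignments on the chromosome 49.4% reach that length, and with a limit of 50 bp the shares were 76.8% and 57.97%. Regions of a single replicate held one in 26.4% (22.1 to 30.9) on chromosome 19 and in 18.3% elsewhere, on narrower regions (median width 281.5 bp against 505 bp for shared regions). Relative to the share of bases in such alignments the order was the reverse. Summits lay in an alignment in 36.4% of replicate 2 peaks and 28.1% of replicate 3 peaks on chromosome 19, which is 2.79 and 2.15 times the share of bases, and in 29.1% and 21.1% elsewhere, which is 5.61 and 4.06 times the share of bases. None of the 8 summits of replicate 1 lay in one (0%, 0 to 36.9), against 17.1% elsewhere. That count depends on the alignment: under a looser limit (e-value 0.01, word size 7), which also finds diverged copies, 2 of the 8 did, at DDX39A and ZNF91. The shares of replicates 2 and 3 were then 47.2% and 36.9%, or 2.88 and 2.25 times the share of bases, and 36.5% and 26.2% elsewhere, or 5.599 and 4.02 times. By window class, an alignment of at least 100 bp was found in 59.6% of shared regions of other gene-dense windows. It was found in 48.1% of those of zinc finger windows and 22.7% of those of gene-poor windows. This is the order of the classes by their share of aligned bases.

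Matches to the rest of the transcript were rare. An exact match of 15 bases outside the Alu part lay within 150 bp of the summit in 1 of the 8 peaks of replicate 1, in 4 of 379 in replicate 2 (1.06%, 0.288 to 2.68) and in 7 of 601 in replicate 3 (1.16%, 0.470 to 2.38). Consecutive tiles of 301 bp, the same length, held one in 0.134% on chromosome 19. On the other autosomes the share was 10.6% of 707 peaks in replicate 1, 1.81% in replicate 2 and 1.71% in replicate 3, with 0.123% of tiles. The members with such a match in replicates 2 and 3 were MYO9B, ATG4D, which encodes an autophagy protease and overlaps KRI1 here, ZNF675 and ZNF8. At ATG4D (summit 10663043 in replicate 3) bases 22 to 36 of the transcript matched, CCTCTTGCTCACCCT, with fold enrichments of 5.97 and 12.9. At ZNF8 (summit 58805035) bases 21 to 35 matched, CCCTCTTGCTCACCC, with 4.12 and 6.75. At ZNF675 (summit 23728889) bases 483 to 497 matched, CTGGGTGCTTTATAT, with 11.3 and 18.1. In replicate 3 alone, HSH2D, ACP7 and an intergenic site had one. Matches of 15 bases to the Alu part lay at 49.1% of summits in replicate 2 and 35.8% in replicate 3, against 18.7% of tiles. Elsewhere they lay at 33.2% and 24.3%, against 7.77% of tiles.

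The depth behind the peaks was similar on chromosome 19 and elsewhere in replicates 2 and 3. Summit read numbers were solved from the p-value together with the fold enrichment. The median was 21, 20 and 15 reads in replicates 1, 2 and 3 on chromosome 19 and 27, 22 and 16 on the other autosomes. The scaled lacZ level at the summit had a median of 0.774, 1.52 and 1.296 reads, against 0.730, 1.39 and 1.10. The level was at its floor, the library-wide background, in 10.8% and 14.3% of peaks in replicates 2 and 3, against 15.9% and 21.95%. Median fold enrichment was 6.59, 5.84 and 6.39 on chromosome 19, against 8.68, 6.07 and 6.87 elsewhere. Higher local lacZ levels and lower fold enrichments thus stood side by side on this chromosome, and the part of the one in the other was not tested. Peaks had median widths of 145, 321 and 342 bp, close to the 147, 316 and 329 bp elsewhere, and 17.2% of shared regions were 1 kb or wider, against 13.2%.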

How the data were processed

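Reads of 100 bp were mapped to hg19 by the authors, with Bowtie2 per the methods and Bowtie 1.0.1 per the submitters' processing notes. MACS2 2.1.0 then called narrow peaks, replicate by replicate, with lacZ as control. The methods give a p-value cut-off of 1e-05, but not all deposited peaks meet it. On chromosome 19 it was met by 366 of 379 peaks in replicate 2 and 586 of 601 in replicate 3. Fold enrichment was deposited as a ratio of scaled reads to local lacZ level, with 1 added to both, so it understates the ratio at low lacZ levels. As −log10 the authors deposited a p-value and a q-value for each peak. The deposited score is the −log10 q-value multiplied and cut to an integer. Replicate numbers follow the sample labels. The peak names inside the lists of replicates 1, 2 and 3 carry the library numbers 2, 3 and 4, and what those numbers stand for is not given in the sources used here.

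Peaks were used as deposited. Members and lists were chosen with earlier results of these data known. Overlapping peaks were merged, and a region was placed by the median of its replicates' highest summits. Genes were those of GENCODE release 44 on GRCh37. Zinc finger genes were protein-coding genes named ZNF, ZFP, ZSCAN, ZKSCAN, ZIM or ZIK with a number. Alu alignments came from blastn 2.17.0 (e-value 1e-05, word size 11), which passes over diverged copies. Reads at summits were solved with 1 depth ratio per replicate (1.83, 1.39 and 1.00 over the lacZ library), which solved 100% of the peaks. Replicate log2 ratios were tested with a two-sided exact sign-flip permutation, and shares have exact Clopper-Pearson 95% intervals. Genes were named by rule: regions in all 3 replicates, the 10 proximal genes of highest mean fold enrichment, the 5 densest windows, the gene families with up to 4 members by fold enrichment, and the 3 highest peaks of each replicate with the widest; names outside it were chosen after their values were seen. The summit sequences, transcript matches and tandem repeats were added after the data were seen. Alternatives were stricter thresholds, leaving out each replicate, other overlap rules, promoter and window definitions, other denominators and Alu lengths. Steps were tested on simulated data. Python 3.11.15, numpy 2.4.6, pandas 2.3.3 and scipy 1.17.1 were used. The reads were not analysed here, and some sequences and genes are not reported here.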

Additional observations from a re-analysis of the deposited data

Results flagged for a closer look

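Some signal lay in sequence that no comparison uses. In MIR205HG replicate 3, 4 peaks lay on an unlocalized contig assigned to chromosome 19, above the 3 counts that a count of 0 allows. Their fold enrichments were 11.6, 4.98, 5.96 and 4.18. Replicate 2 had 2 peaks there, with 6.20 and 4.17, each overlapped by a peak of replicate 3, and replicate 1 had none. The contig was not annotated here, and no lacZ peak list was used, so the level in the control library is known only through the fold enrichment.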

How the results depend on the processing

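Of 59 alternative values, 36 stayed within the limit set for a change without reversing direction, 18 moved beyond it and 5 reversed direction. Zinc finger log2 ratios of -0.42, -0.35 and -0.38 kept their direction but are among the 18. The limit was wide. A log2 density ratio of 0.80 in place of 0.23, and 193 shared regions in place of 267, counted as within it. The log2 density ratio of chromosome 19 to the other autosomes ran from -0.055 to 0.80 when a replicate was left out (0.80 without replicate 1, below 0 without replicate 2 or 3), and was -1.74 per protein-coding gene and -1.10 per Alu base, a denominator added after seeing the data (-1.10 with the looser alignment limit, also added then). The number of shared regions ran from 7 to 267, with 7 without replicate 2 or without replicate 3. On those 7 regions the share in promoters rose to 42.9% and the share in introns was 28.6%. The share with an Alu alignment was 42.9% without replicate 2 and 28.6% without replicate 3. Without replicate 1 the same 267 regions remained, because each of its peaks lay in a region of both others. Their shares of 16.9%, 48.3% and 55.4% are therefore no separate check, although they are among the 36. The promoter share was 10.9% with a narrower promoter window and 22.1% with any base of the region. The share with an Alu alignment was 76.8% from 50 bp. The log2 ratio of zinc finger to other gene-dense windows ran from -1.12 to -0.86 when a replicate was left out, and was -0.42 for clusters drawn as runs of genes, where replicate 1 went the other way, and -0.35 per Alu base (-0.38 with the looser limit). With that limit 59.9% of shared regions held an Alu alignment, and summits in one rose from 36.4% to 47.2% in replicate 2 and from 28.1% to 36.9% in replicate 3. Peaks with a transcript match outside the Alu part were 3.69% and 4.99% in replicates 2 and 3 with matches of 13 bases, in place of 1.06% and 1.16%. The share of chromosome 19 tiles with such a match also rose, from 0.134% to 1.28%. Relative to tiles the peak shares therefore fell, from 7.86 and 8.67 times to 2.88 and 3.89 times. The stricter thresholds (p, q and fold enrichment) were run for the density per Mb, the shared regions and the zinc finger ratio per Mb. For shared regions this covered their number and their promoter, intron and Alu shares. None of these moved beyond the limit set for a change. The number of shared regions fell from 267 to 193 at a fold enrichment of at least 5. No paired analysis was possible because the replicates form a single group.

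Replicate 1 had 8 peaks on chromosome 19, so its ratios and shares rest on few counts, and 3 replicates cannot reach a p below 0.25. All 3 lists share 1 lacZ library. Median depth at a summit was 15 to 21 reads, so sites of lower enrichment are not in the lists. In repeats such as Alu copies and the MYO9B tandem repeat, the placement of reads by the aligner was not examined here.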

Other observations

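Tandem repeats such as the one in MYO9B, which prompted the search, were looked for at the other 266 shared regions. Within 150 bp of the summit, at least 60% of bases equalled the base 1 period further on in 6 of them (2.26%), against 1.51% of 301 bp tiles of chromosome 19. At 75% it was 1 region (0.376%), against 0.511% of tiles. That region lay in an intron of CYP4F11, with 92.2% at a period of 20 bp and a mean fold enrichment of 8.03. Introns of FZR1, an activator of the anaphase-promoting complex (73.7% at 12 bp), of FSD1 (68.1% at 31 bp) and of ZNF536 (63.4% at 6 bp) were among the 6, with mean fold enrichments of 7.96, 5.47 and 5.94.

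More than 1 shared region was found at 56 protein-coding genes, of which 8 were zinc finger genes. CACNA1A, which encodes a voltage-gated calcium channel subunit, held 6. SUPT5H, which encodes a subunit of the transcription elongation factor DSIF, and ZNF554 held 5 each. CRX, DPRX, PEX11G and ZNF536 held 4 each. Regions that did not overlap were counted separately even where they lay close together. The 5 of SUPT5H all lay between chr19:39937513 and chr19:39944000. Neither such nearness nor gene length was taken into account in these counts.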
